A study of Rattus norvegicus with 63 samples.

Results

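Phenobarbital was compared with its labelled control set in livers of male Wistar Hanover rats, as 3 animals given phenobarbital sodium (PB) and 3 given methylcellulose (control set 6), 6 of the 63 animals of the series. They were chosen by their labels, and all 158 analytes of the reverse-phase protein array, on which antibodies read spotted liver lysates, were used. Both groups were dosed by gastric gavage for 14 days and were 8 to 10 weeks old when assigned to groups. The labels give no dose for PB, whereas the study's methods state one and its table of compounds lists none. The vehicle of PB is methylcellulose by the labels, which are followed here, but carboxymethyl cellulose in the study's methods and table. From each treatment group of 5 rats the study selected 3 with some liver change on histopathology. The series holds 15 compounds and 6 control sets. The study asks whether mRNA, miRNA and protein profiles predict if a compound is a liver carcinogen, and if it damages DNA. The 9 methylcellulose animals of control sets 1, 2 and 5 were used as a second reference, because the labels and the deposited ratios differ on which control set belongs to PB.

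Phenobarbital is the classic inducer of hepatic cytochrome P450 enzymes. It leads to activation of the constitutive androstane receptor (CAR), which, like the pregnane X receptor (PXR), binds DNA together with RXR and raises transcription of CYP2B and CYP3A genes. The enzymes sit in the endoplasmic reticulum, oxidise drugs and steroids, and take their electrons from cytochrome P450 reductase (POR).

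The signal of each analyte is a relative fluorescence intensity (RFI) on a linear scale. The antibodies carry human gene symbols, a number after the symbol separates several entries of 1 symbol, and which rat protein each entry bound was not determined. Levels were therefore compared between animals and not between analytes. Of the hepatocyte markers, HNF4A and the cytochrome P450 enzymes CYP2B6, CYP3A4, CYP2C8, CYP1A2 and CYP2E1 gave a signal above 0 in each of the 6 animals, whereas glutamine synthetase (GLUL) was below 0 in 2. None of the 22 listed symbols that mark other liver cell types was on the array, so the cell makeup of the tissue was not measured.

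Promoter sequence of rat genes that correspond to the symbols CYP2B6, CYP3A4 and POR is shown for orientation. It covers the 250 bases before the annotated start in RefSeq build GRCr8, 5′ to 3′ on the gene's strand. Capitals mark a direct repeat of TGAACT with any 3 bases between its copies, a form of repeat that PXR is known to bind, and a single half-site spelled AGGTCA, each searched on both strands and not overlapping each other here. Cyp3a23-3a1 lies at chr12:14398804-14399053 and Cyp3a2 at chr12:14343858-14344107, both on the minus strand, Por at chr12:26635810-26636059 on the minus strand and Cyp2b1 at chr1:90645869-90646118 on the plus strand.
Cyp3a23-3a1: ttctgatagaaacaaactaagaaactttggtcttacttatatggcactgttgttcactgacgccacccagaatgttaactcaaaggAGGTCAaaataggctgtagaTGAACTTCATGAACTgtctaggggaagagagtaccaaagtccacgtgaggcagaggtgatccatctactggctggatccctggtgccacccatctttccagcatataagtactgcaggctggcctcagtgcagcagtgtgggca
Cyp3a2: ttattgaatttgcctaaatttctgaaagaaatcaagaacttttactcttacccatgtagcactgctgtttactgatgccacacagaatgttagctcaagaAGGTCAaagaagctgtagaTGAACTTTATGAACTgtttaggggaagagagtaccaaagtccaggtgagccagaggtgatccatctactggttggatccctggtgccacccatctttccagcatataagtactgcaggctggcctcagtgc
Por: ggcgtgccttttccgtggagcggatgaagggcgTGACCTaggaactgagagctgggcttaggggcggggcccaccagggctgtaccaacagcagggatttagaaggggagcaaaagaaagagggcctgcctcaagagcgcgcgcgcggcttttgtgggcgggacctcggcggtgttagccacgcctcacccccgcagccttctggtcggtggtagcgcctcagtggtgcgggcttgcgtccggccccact
Cyp2b1: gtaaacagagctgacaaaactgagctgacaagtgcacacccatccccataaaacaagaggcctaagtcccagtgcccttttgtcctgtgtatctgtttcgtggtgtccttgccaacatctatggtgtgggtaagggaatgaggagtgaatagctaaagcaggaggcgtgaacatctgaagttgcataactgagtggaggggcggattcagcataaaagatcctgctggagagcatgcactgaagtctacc
The repeat was found in 2 of the 33469 promoter windows of this length (0.00598%), those of Cyp3a23-3a1, where its first base stands at -144, and of Cyp3a2, where it stands at -131. The spelling was taken from what is known of rat Cyp3a promoters, so its presence there is no finding. The half-site was in 14.1% of all windows, once each in Cyp3a23-3a1, Cyp3a2 and Por, and neither motif was in the Cyp2b1 window. The enhancer through which phenobarbital is known to act on CYP2B genes lies farther upstream and was not searched.

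CYP2B6_1 and CYP3A4_2 stood far above all controls in PB. The RFI of CYP2B6_1 was 3.17, 3.2 and 3.81 in the PB animals and 0.56, 0.439 and 0.362 in control set 6. In the 9 other methylcellulose controls it ran from 0.371 to 0.496 with a median of 0.404. Every PB animal was thus above each of the 12 controls, which lay close together. The rise was 7.57-fold (log2 fold change 2.92, SE 0.33, n = 3 against 3, limma adjusted p = 3.88e-09). It was called under each of the 22 alternative settings, with log2 fold changes between 2.67 and 3.43.

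CYP3A4_2, whose symbol names the main drug-oxidising enzyme of human liver, had an RFI of 9.32, 11.2 and 10.1 in PB and of 1.94, 2.6 and 1.89 in control set 6. The 9 other controls ran from 0.881 to 1.6 with a median of 1.17. The 3 PB animals did not overlap any control, and the 3 animals of set 6 were all above the 9 other controls. The rise was 4.79-fold against set 6 (log2 fold change 2.26, SE 0.32, limma adjusted p = 5.63e-07) and 2.89 on the log2 scale against all 12 controls (SE 0.25, limma adjusted p = 5.82e-13). It was also called under each of the 22 alternatives, with log2 fold changes from 2.18 to 3.66.

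CCNE2, cyclin E2, a partner of CDK2 at entry into DNA synthesis, was the third analyte called higher. Its RFI was 0.389, 0.417 and 0.631 in PB, 0.367, 0.2 and 0.199 in set 6, and 0.175 to 0.24 (median 0.213) in the other 9 controls. The PB animals lay above all 12 controls, but PB animal 1 exceeded control animal 1 of set 6 only narrowly. The log2 fold change was 0.94 (SE 0.20, limma adjusted p = 0.00139), a 1.91-fold rise. It was called under 20 of the 22 alternatives and missed the threshold in a fit of the 6 animals alone and without PB animal 3, which has the highest value (log2 fold change 0.94 and 0.72, limma adjusted p = 0.0521 and 0.0522).

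POR, the reductase that supplies the P450 enzymes with electrons, read 20.3, 23.2 and 32.4 in PB and 21.4, 14.2 and 12.3 in set 6. The other 9 controls ran from 10.8 to 18.1 with a median of 13.8. The PB animals were above those 9 and above 2 of the 3 animals of set 6, whereas control animal 1 lay between PB animals 1 and 2. The log2 fold change against set 6 was 0.67 (SE 0.25) and did not pass the test (limma adjusted p = 0.0718). Against all 12 controls it was 0.77 (SE 0.20, limma adjusted p = 0.0134).

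**Figure D1:**
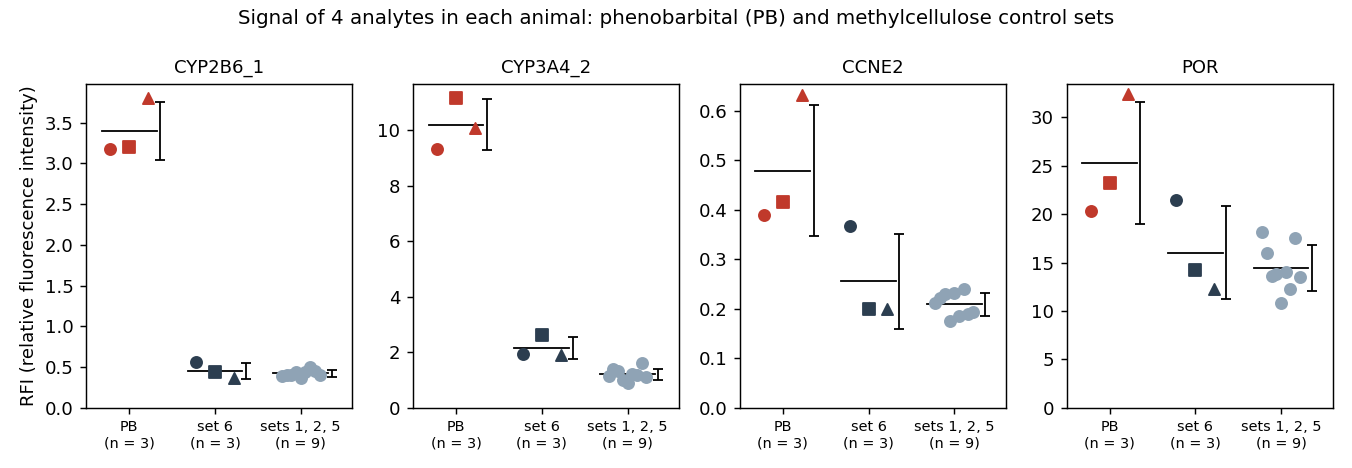
RFI (linear axis from 0) of CYP2B6_1, CYP3A4_2, CCNE2 and POR in each PB animal, each animal of control set 6 (circle, square and triangle for animals 1, 2 and 3) and the 9 other methylcellulose controls, with the mean as a line and the SD as a bar. The PB animals lie above all 12 controls for the first 3 analytes, and for POR control animal 1 of set 6, at 21.4, lies among them.

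The signal of control animal 1 of set 6 was high across the array, which bears on every comparison with that set. Its median RFI over the 158 analytes was 0.882, against 0.587 and 0.597 in the other animals of set 6, 0.504 to 0.641 in the 9 other methylcellulose controls and 0.522, 0.472 and 0.548 in the PB animals. It had the highest value of the 12 controls for 131 of the 158 analytes. The mean of the animal medians was 0.41 lower in PB than in set 6 on the log2 scale (exact permutation test over 6 animals, two-sided, p = 0.1, the smallest this design allows). Without control animal 1 the difference was -0.22 (exact permutation test, p = 0.2), and against the 9 other controls it was -0.17 (exact permutation test, p = 0.0773). In the authors' deposited log2 ratios the animal medians were 0.31, -0.26 and -0.08 in PB and 0.19, 0 and 0 in set 6. The median log2 fold change of the analytes was -0.06 there. Those ratios are relative to a control median, and for PB that of set 5 was followed more closely, so they are not a like measure of the shift. A loss of signal in PB liver and a gain in that 1 control animal cannot be told apart by set 6 alone. Results are therefore given both as deposited (uncentred) and after each animal was centred on its own median (centred).

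**Figure D2:**
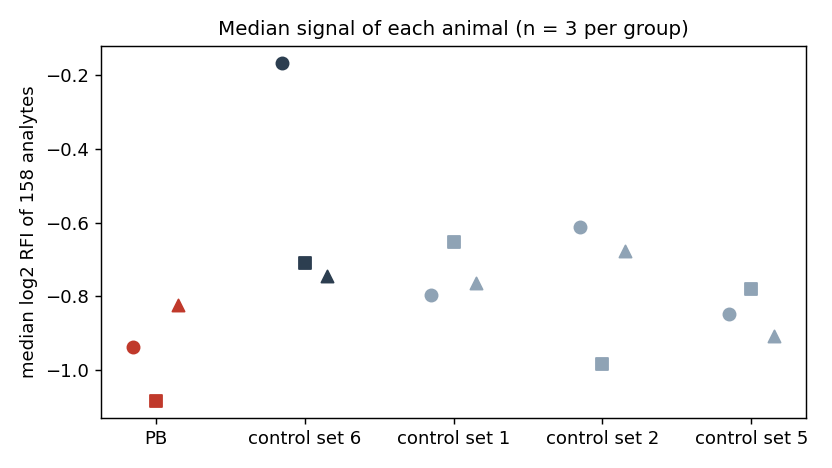
Median log2 RFI over 158 analytes of each animal, 3 per group, for PB and the 4 methylcellulose control sets, with symbols for the animals of a group in label order. Control animal 1 of set 6, at -0.17, stands above the other 11 controls, which lie between -0.98 and -0.61, and the PB animals lie between -1.08 and -0.82.

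Uncentred, 8 of the 158 analytes (5.06%) were called in PB against set 6 at an adjusted p below 0.05, 3 higher (1.9%) and 5 lower (3.16%). Across the array the median log2 fold change was -0.29, and at an unadjusted p below 0.05 there were 4 higher and 36 lower analytes. Without control animal 1 of set 6 the calls were CYP2B6_1, CYP3A4_2 and CCNE2 alone. After centring, 9 analytes (5.7%) were called, all higher, the median was 0.12, and 25 higher and 5 lower analytes had an unadjusted p below 0.05. Against all 12 controls, uncentred, 4 were called (2.53%), all higher, namely CYP2B6_1, CYP3A4_2, CCNE2 and POR, with a median of -0.17. Before adjustment 6 higher and 20 lower analytes had a p below 0.05 there. In 3 analytes (1.9%) the 3 PB animals lay above the 3 of set 6, the same 3 that were called higher, and in 28 (17.7%) they lay below.

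Among the 18 analytes of drug-metabolising enzymes, 2 were called higher uncentred and none lower in the limma fit (3 and 3 at an unadjusted p below 0.05), beside 1.9% and 3.16% over the whole array. After centring 4 were called higher (CYP2B6_1, CYP3A4_2, POR and CYP2B6_2). The median log2 fold change of the group was -0.28 uncentred and 0.13 centred, close to the -0.29 and 0.12 of all analytes. No test of the group was made.

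Entries of 1 symbol did not move alike. CYP2B6_2 read 0.588, 0.472 and 0.565 in PB and 0.731, 0.517 and 0.436 in set 6. These ranges overlap, and the log2 fold change was -0.02 uncentred (SE 0.15, limma adjusted p = 0.883) and 0.38 centred (SE 0.10, limma adjusted p = 0.00984), a change of sign. CYP2B6_3 read 220, 116 and 192 against 152, 93.2 and 70.3, with log2 fold changes of 0.77 and 1.18 that passed in neither scaling (limma adjusted p = 0.273 and 0.155). CYP3A4_1 read 5, 5.7 and 7.43 in PB and 15.7, 6.9 and 5.96 in set 6. Control animal 1 alone held the high value there, and the log2 fold change of -0.54 (SE 0.25) was not called (limma adjusted p = 0.164). CYP3A5, another entry of the CYP3A family, read 0.526, 0.522 and 0.507 against 0.976, 0.556 and 0.545, with log2 fold changes of -0.36 uncentred and 0.05 centred, neither called.

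CYP2C8, the symbol of a human drug-oxidising enzyme that is also inducible through CAR and PXR, read 3.76, 4.48 and 8.31 in PB and 5.34, 3.07 and 3.53 in set 6. The 9 other controls ran from 2.26 to 3.26, below all 3 PB animals. It was not called against set 6 (log2 fold change 0.43, SE 0.41, limma adjusted p = 0.464), and was called only with the 12 controls as the reference after centring (1.02, limma adjusted p = 0.0273). CYP1A2_1, an enzyme regulated by the aryl hydrocarbon receptor, read 1.1, 0.931 and 1.05 in PB and 2.32, 1.24 and 1.6 in set 6. Its PB animals lay below those of set 6, but the log2 fold change of -0.70 uncentred and -0.29 centred was not called (limma adjusted p = 0.0718 and 0.488). CYP1A2_2 had log2 fold changes of 0.05 and 0.46 (limma adjusted p = 0.846 and 0.0539).

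The remaining entries of the group were not called in either scaling. CYP1A1_1 and CYP1A1_2, the inducible partners of CYP1A2, had uncentred log2 fold changes of -0.26 and -0.39. CYP2E1_1 and CYP2E1_2, the ethanol-oxidising P450, stood at -0.58 and -0.62. CYP2D6 was at -0.12, CYP4F2, a fatty acid hydroxylase, at -0.40, cytochrome b5 (CYB5A), a second electron donor, at -0.36 and UGT1A1, which conjugates bilirubin and drugs, at -0.30. After centring these 8 entries lay between -0.21 and 0.29, and for 6 of them the sign turned from negative to positive.

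**Figure D3:**
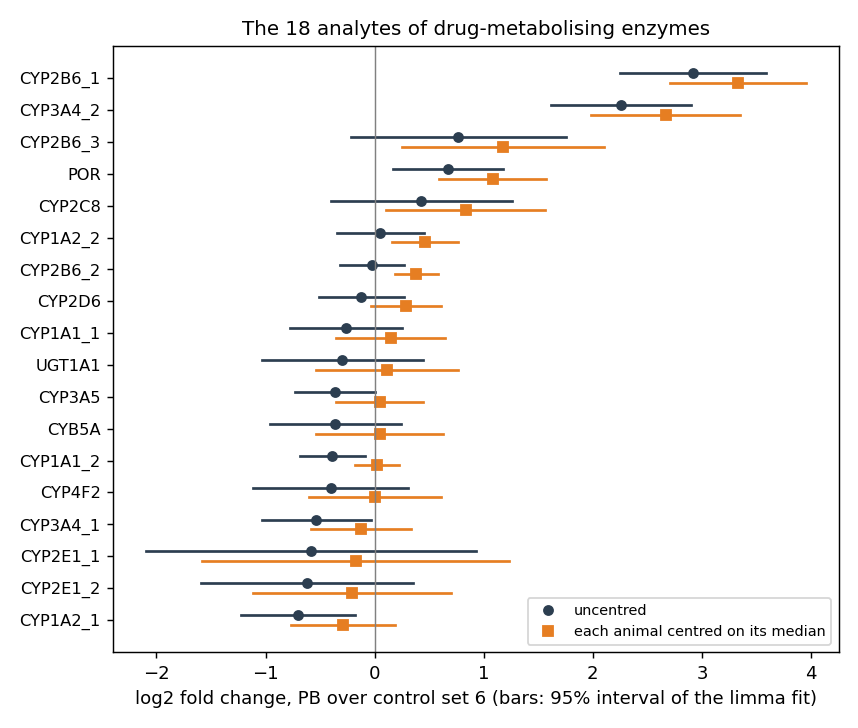
Log2 fold change of the 18 analytes of drug-metabolising enzymes, PB over control set 6, uncentred (circles) and with each animal centred on its median (squares), with the 95% interval of the limma fit (3 animals per group). CYP2B6_1 and CYP3A4_2 lie far to the right in both scalings, and most of the others lie left of 0 uncentred and near 0 centred.

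The 5 analytes called lower without centring were PRKAA1, MAPK3_P-T202/Y204, HNF4A, CDKN1B_P-S10 and MYC. In each of the 5 the highest of the 12 methylcellulose controls was control animal 1 of set 6. None of the 5 was called after centring, against all 12 controls or without control animal 1.

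PRKAA1, the catalytic subunit of the energy sensor AMPK, read 0.276, 0.318 and 0.339 in PB and 0.767, 0.505 and 0.431 in set 6, with the other controls between 0.351 and 0.516. Its PB animals lay below all 12 controls, which held in 3 of the 158 analytes (1.9%; the others, PIK3R1 and PPP2CB_P-Y307, were picked out after their values were seen). The log2 fold change was -0.83 against set 6 (SE 0.23, limma adjusted p = 0.0232), -0.42 centred (SE 0.14, limma adjusted p = 0.0621) and -0.53 against all 12 controls (SE 0.18, limma adjusted p = 0.0953). Without PB animal 1, 2 or 3 it was -0.75, -0.85 and -0.89, a similar size, with limma adjusted p of 0.0889, 0.0777 and 0.0522.

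MAPK3_P-T202/Y204, the activated form of the kinase ERK1, read 2.38, 1.85 and 1.9 in PB, 4.15, 3.32 and 3.73 in set 6 and 1.87 to 3.69 in the other controls. The PB animals lay below set 6 and overlapped the rest. The log2 fold change was -0.87 (SE 0.24, limma adjusted p = 0.0232), and -0.46 after centring (SE 0.20, limma adjusted p = 0.179). Without control animal 1 it was -0.79 (limma adjusted p = 0.168), the smallest shift of the 5 falls. Without PB animal 2 or 3 it was -0.81 and -0.82, and not called (limma adjusted p = 0.109 and 0.0696).

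HNF4A, a transcription factor of hepatocyte identity, read 1.44, 1.64 and 1.75 against 2.93, 2.09 and 2.3 in set 6. The log2 fold change was -0.59 (SE 0.17, limma adjusted p = 0.035) and -0.18 centred (SE 0.13, limma adjusted p = 0.419). CDKN1B_P-S10, the cell cycle inhibitor p27 phosphorylated at a serine tied to its nuclear export, read 2.6, 2.18 and 2.5 against 6.4, 3.55 and 3.98. It had a log2 fold change of -0.89 (SE 0.27, limma adjusted p = 0.0473) and of -0.48 centred (SE 0.26, limma adjusted p = 0.33). MYC, a transcription factor of growth, read 0.407, 0.382 and 0.398 against 0.946, 0.548 and 0.488, with -0.68 (SE 0.21, limma adjusted p = 0.0482) and -0.27 centred (SE 0.13, limma adjusted p = 0.259). The PB values of these 3 were below set 6 and reached into the range of the 9 other controls, which ran from 1.73 to 2.31, 2.59 to 4.42 and 0.401 to 0.528. With any 1 PB animal left out the log2 fold changes kept a similar size, from -0.65 to -0.51 for HNF4A, -0.94 to -0.82 for CDKN1B_P-S10 and -0.70 to -0.65 for MYC, and limma adjusted p rose to between 0.0522 and 0.146.

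**Figure D4:**
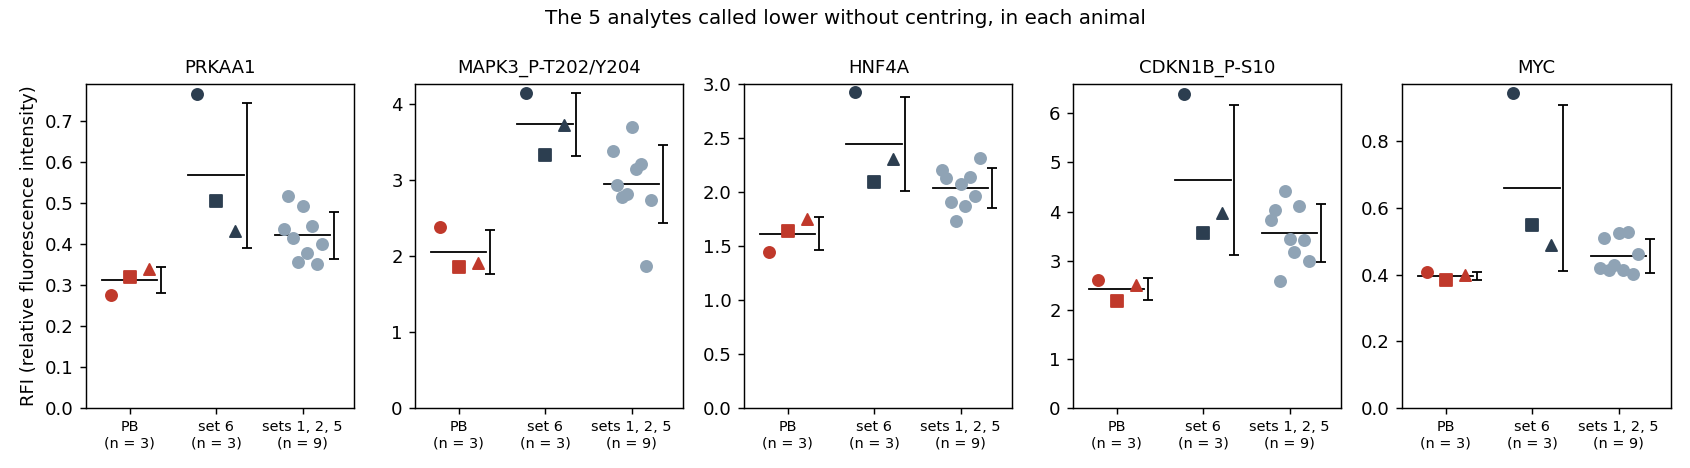
RFI (linear axis from 0) of the 5 analytes called lower uncentred, in each PB animal, each animal of control set 6 (circle, square and triangle for animals 1, 2 and 3) and the 9 other methylcellulose controls, with mean and SD. Control animal 1 of set 6 (circle) is the highest point in each panel, for example 0.767 for PRKAA1 and 6.4 for CDKN1B_P-S10.

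After centring, 4 analytes outside drug metabolism were called higher beside CCNE2. The receptor MET phosphorylated at Y1349, a docking site of the hepatocyte growth factor receptor, read 0.227, 0.245 and 0.249 in PB and 0.343, 0.24 and 0.181 in set 6. Its log2 fold change was -0.04 uncentred (SE 0.16, limma adjusted p = 0.856) and 0.37 centred (SE 0.10, limma adjusted p = 0.0121), a change of sign. NFKBIA, the inhibitor that holds NF-kappa-B in the cytoplasm, had a log2 fold change of 0.03 uncentred and 0.44 centred (SE 0.12, limma adjusted p = 0.0173). GLB1, the lysosomal beta-galactosidase, had 0.17 and 0.58 (SE 0.17, limma adjusted p = 0.0208), and total CDKN1B had 0.04 and 0.45 (SE 0.13, limma adjusted p = 0.0243). The uncentred values of these 4 overlapped between PB and set 6, and none was called against all 12 controls in either scaling. PB animals read 0.116, 0.117 and 0.136 for NFKBIA and 0.115, 0.113 and 0.113 for CDKN1B.

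Signalling and growth proteins were described by list, and no list was tested as a group. The shares called over all 158 analytes, to set beside them, were 1.9% higher and 3.16% lower uncentred, and 5.7% higher centred. At an unadjusted limma p below 0.05 the array of 158 had 4 higher and 36 lower analytes uncentred, and 25 higher and 5 lower centred. In the ERK cascade 16 analytes were measured, 1 was called lower (MAPK3_P-T202/Y204), and all 16 had a negative log2 fold change uncentred, against 6 of 16 after centring. Over the whole array these were 141 and 42 of 158. At an unadjusted limma p below 0.05 the ERK cascade had 6 lower analytes uncentred, and 1 higher and 1 lower centred. The next smallest p of that list belonged to the small GTPase HRAS, which read 0.464, 0.534 and 0.598 against 0.898, 0.754 and 0.648 (log2 fold change -0.52, limma adjusted p = 0.0551). In the PI3K, AKT, MTOR and AMPK list 1 of 18 was called lower (PRKAA1), and the kinase MTOR phosphorylated at S2448 stood at -0.63 (limma adjusted p = 0.0612). At an unadjusted limma p below 0.05 this list had 6 lower analytes uncentred. Centred it had 3 lower, of the 5 lower in the whole array. None of 11 stress kinase analytes was called by limma in either scaling (2 lower uncentred and 2 higher centred at an unadjusted p below 0.05). Among them p38 (MAPK14) stood at -0.52 (limma adjusted p = 0.0665), activated JNK (MAPK8_P-T183/Y185) at -0.49 and its substrate JUN at -0.08 (limma adjusted p = 0.796).

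Of 18 cell cycle and DNA damage analytes, CCNE2 was called higher and MYC and CDKN1B_P-S10 lower uncentred, and CCNE2 and CDKN1B higher after centring. Over the whole array the shares were 1.9% higher and 3.16% lower uncentred, and 5.7% higher centred. Of 15 growth factor receptors and adaptors none was called uncentred by limma (2 lower at an unadjusted p below 0.05), with SMAD2, which carries TGF-beta signals, at -0.62 (limma adjusted p = 0.0718) and the phosphatase PTPN11 at -0.32. Of 13 JAK-STAT and NF-kappa-B analytes none was called uncentred by limma (2 lower at an unadjusted p below 0.05), with STAT3_P-Y705 at -0.41 and JAK2_P-Y1007/Y1008 at -0.41. None of 5 apoptosis regulators was called by limma in either scaling (2 lower uncentred at an unadjusted p below 0.05), where the survival protein BCL2L1 stood at -0.67 (limma adjusted p = 0.0665) and BAX at -0.34. The same held for 6 beta-catenin and adhesion analytes (1 lower uncentred and 2 higher centred at an unadjusted p below 0.05), with CTNNB1 at -0.71 (limma adjusted p = 0.0643) and its phosphorylated form CTNNB1_P-T41/S45 at -0.34. It also held for 11 histone and chromatin analytes (3 lower uncentred and 1 higher centred at an unadjusted p below 0.05), with HDAC6 at -1.11 (limma adjusted p = 0.0665) and HDAC2 at -0.42. HDAC6 read 0.114, 0.0945 and 0.102 against 0.398, 0.113 and 0.244, and the highest PB value lay just above the lowest control. Of 8 hepatocyte factors and metabolic enzymes HNF4A was called lower uncentred. GLUL read 0.293, 0.206 and -0.82 in PB and 1.18, -1.34 and 1.74 in set 6, and no fold change is given because values below 0 stood in both groups. Uncentred medians of these lists ran from -0.45 for the apoptosis regulators to -0.16 for the stress kinases, around the -0.29 of all analytes, and centred medians from -0.04 to 0.25.

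The ratio of a modified form to its own total protein does not depend on the scaling of an animal, and 48 such ratios were tested. Only MYC_P-T58/S62 over MYC was called (1 of 48, 2.08%). The ratio was 0.569, 0.506 and 0.571 in PB and 0.317, 0.416 and 0.406 in set 6, without overlap. It was higher by 0.54 on the log2 scale (SE 0.14, limma adjusted p = 0.0146). Uncentred, the modified form had a log2 fold change of -0.14 (limma adjusted p = 0.604) and total MYC one of -0.68, and centred they had 0.27 (limma adjusted p = 0.163) and -0.27 (limma adjusted p = 0.259), so that which of them moved depends on the scaling. Against all 12 controls the difference was 0.24 (limma adjusted p = 0.495), and without control animal 1 it was 0.41 (limma adjusted p = 0.2). Without PB animal 1 or 3 it stayed at 0.51 but was not called (limma adjusted p = 0.0931 and 0.099), and in a fit of the 6 animals alone it was 0.54 (limma adjusted p = 0.42). The ratio of CDKN1B_P-S10 to CDKN1B was 22.6, 19.3 and 22.2 in PB and 40.6, 36.4 and 45.8 in set 6, also without overlap. Its log2 difference was -0.93 (SE 0.29, limma adjusted p = 0.06). It was called in the 6 animals alone (limma adjusted p = 0.0388). Against all 12 controls it was -0.64 and not called (limma adjusted p = 0.299), nor was it called without control animal 1 (-0.94, limma adjusted p = 0.2). Without PB animal 1, 2 or 3 limma adjusted p was 0.119, 0.159 and 0.132.

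Set 6 was compared with the 9 other methylcellulose controls to see what the reference adds. Only the ribosomal protein S6 phosphorylated at S235/S236, a readout of MTOR and ERK signalling, was called (1 of 158, 0.633%). It read 3.66, 1.43 and 0.945 in set 6, 4.52 to 12.7 with a median of 8.16 in the 9 others, and 1.95, 5.29 and 1.16 in PB. The signal in set 6 was lower by 2.27 on the log2 scale (SE 0.49, limma adjusted p = 0.00403). Without control animal 3 the difference was -1.85 (limma adjusted p = 0.0674). PB and set 6 overlapped for this analyte (log2 fold change 0.43, SE 0.59, limma adjusted p = 0.604), but PB was lower by 1.85 against the 9 others (limma adjusted p = 0.0133). CYP3A4_2 was higher by 0.84 in set 6 than in the 9 others (SE 0.26), which did not pass (limma adjusted p = 0.12).

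Piperonylbutoxide (PBO, 3 days at 1200 mg/kg per day, control set 5) and cyproterone acetate (CPA, 14 days at 100 mg/kg per day in corn oil, control set 4) also raised CYP2B6_1 and CYP3A4_2. Against their own controls 10 of 158 analytes (6.33%) were called under PBO, 8 higher (5.06%) and 2 lower (1.27%), and 8 (5.06%) under CPA, all higher. POR was called higher under both, uncentred (log2 fold change 1.49 and 1.29, limma adjusted p = 1.43e-05 and 0.000277). CCNE2 was called higher under PBO (0.76, limma adjusted p = 0.0118) but not under CPA (0.37, limma adjusted p = 0.33). CYP2C8 was called higher under CPA (1.77, limma adjusted p = 0.00266) but not under PBO (0.77, limma adjusted p = 0.308). PB and CPA were both given for 14 days but in different vehicles, and PBO was given for a shorter time than PB. The labels give no dose of PB to set beside the others. The compound and these conditions therefore cannot be told apart. Control set 5 is labelled with 14 days against 3 days for PBO, so the PBO effect also holds that difference in duration. MAPK3_P-T202/Y204, called lower under PB, was also called lower under PBO, uncentred (log2 fold change -0.87, SE 0.24, limma adjusted p = 0.016). Under CPA it was not called (0.24, limma adjusted p = 0.526). CYP2B6_1 rose under PBO to 2.84, 3.53 and 3.07 from 0.438, 0.371 and 0.434. The PB and PBO effects on it differed by -0.0031 on the log2 scale, with a 95% interval from -0.95 to 0.94, and by 0.55 after centring, with an interval from -0.33 to 1.43. CYP3A4_2 rose under PBO to 38.8, 40 and 35.6 from 0.999, 0.881 and 1.2, and under CPA to 41.7, 43.3 and 42.9 from 1.14, 0.865 and 1.14. The PB effect on CYP3A4_2 was smaller by 2.97 than that of PBO (SE 0.45, limma adjusted p = 3.22e-06) and by 3.10 than that of CPA (SE 0.45, limma adjusted p = 2.28e-06), and both differences were called after centring (-2.41 and -2.47).

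CYP1A2_1 rose under PBO to 4.63, 7.64 and 8.01 from 1.32, 1.17 and 1.08 and did not rise under PB. The PB effect was lower by 3.17 (SE 0.37, limma adjusted p = 5.60e-09) and by 2.61 after centring. Against CPA the PB effect on CYP2B6_1 was higher by 0.88 uncentred (95% interval -0.07 to 1.83, limma adjusted p = 0.163) and by 1.51 centred (limma adjusted p = 0.0362). The CCNE2 effect was higher under PB than under PBO by 0.18 uncentred (limma adjusted p = 0.63) and by 0.73 centred (limma adjusted p = 0.0364). Against CPA it was higher by 0.57 (limma adjusted p = 0.142) and by 1.20 (limma adjusted p = 8.06e-05). The POR effect did not differ by the test from that of either compound (uncentred differences of -0.82 and -0.62, limma adjusted p = 0.138 and 0.187, and centred differences of -0.26 and 0.01, limma adjusted p = 0.724 and 0.999). In all, 3 of 158 analytes differed between PB and PBO (1.9%), the third being the kinase MAP2K2, and 16 between PB and CPA (10.1%), each with a lower PB effect. After centring the differences from CPA ran in both directions, 5 higher (3.16%) and 4 lower (2.53%). Centred, 4 differed from PBO (2.53%), 2 in each direction (1.27% each), and 9 from CPA (5.7%). Without control animal 1 the uncentred counts were 2 and 3, and without control animal 3 they were 28 and 41.

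**Figure D5:**
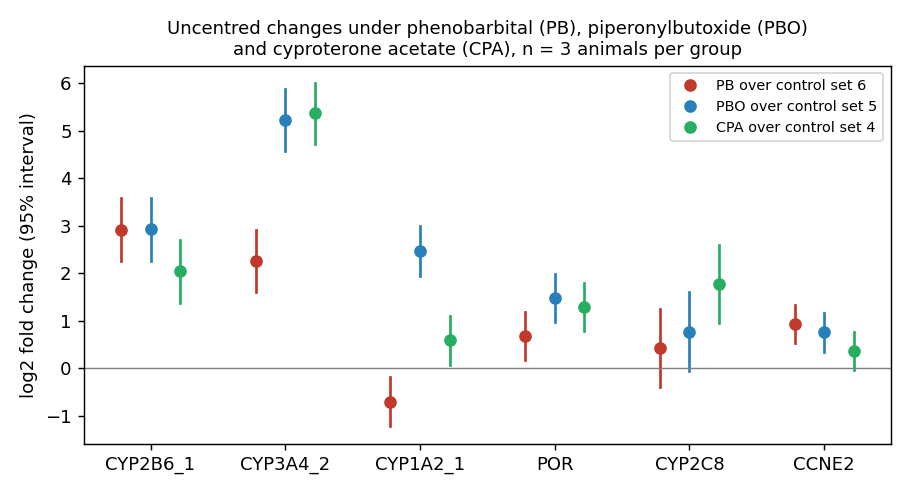
Uncentred log2 fold change (points) with the 95% interval of the limma fit (lines) of 6 analytes for PB over control set 6, PBO over control set 5 and CPA over control set 4, with 3 animals in each group. CYP2B6_1 rose by 2.92 under both PB and PBO, whereas CYP3A4_2 rose by 2.26 under PB, 5.23 under PBO and 5.36 under CPA.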

How the data were processed

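Reverse-phase protein arrays (ZeptoMARK) of liver lysates adjusted to 1 protein concentration were read per animal. The authors took spot intensities, subtracted the local background and normalized them over the array with ZeptoVIEW Pro. The deposited intensity (RFI) is linear, and whether the secondary-antibody blank was already subtracted is not stated. The deposited log2 ratios of the series matrix were blank-corrected, divided by a control median and imputed by the authors, and served as an alternative. The PB ratios followed the medians of control set 5 more closely (median absolute deviation 0.120 to 0.135 on the log2 scale) than those of set 6 (0.162 to 0.202).

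Values at or below 0 were treated as missing (3 in the 6 animals, in 2 analytes), and the rest were log2 transformed. limma 3.58.1 in R 4.3.3 was fitted to 63 animals as 21 group means (42 residual degrees of freedom). PB was contrasted with control set 6, with Benjamini-Hochberg adjustment over 158 analytes (54 modified forms and 104 totals) and calls at an adjusted p below 0.05. For GLUL the fit used 2 animals per group. The script was tested on simulated data. Ratios of modified to total forms, differences between compound effects and set 6 against the other controls were fitted likewise. Animals are separate rats, and 3 per group limit the precision.

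Named are all analytes called uncentred or centred, all drug-metabolising enzymes (CYP3A5, CYP4F2 and CYB5A were added to that list after the analyte names were seen), the pair called as a ratio, the 2 smallest p of each other list, and GLUL, JUN, CDKN1B and CYP2C8. The members and lists were chosen with earlier results of these data known. Alternatives were another reference (12, 9 or single control sets), centring, animals fitted alone, trend and robust shrinkage, imputation (5 neighbours, scikit-learn 1.9.0), an offset of 0.1, a filter on the dimmest 10%, the replicate block, the series matrix and leaving out each animal.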

Additional observations from a re-analysis of the deposited data

How the results depend on the processing

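The calls of CYP2B6_1 and CYP3A4_2 held under all 22 alternatives and that of CCNE2 under 20, while the 5 falls were not called with the references of sets 1, 2 and 5 or without control animal 1. Leaving out a PB animal kept their sizes between -0.99 and -0.51 but ended most of the calls. The count of 8 called analytes was 4 with the 12 methylcellulose controls as the reference and 5 with the 9 of sets 1, 2 and 5. It was 5 with control set 5 alone, 3 with set 1 and 3 with set 2. It was 14 with log2(RFI + 0.1), 5 in the series matrix and 5 when centred against the 12 controls. Leaving out 1 animal gave 2 to 29 calls, the lowest without PB animal 3 and the highest without control animal 3, and 3 without control animal 1. With centring MET_P-Y1349 and CYP2B6_2 turned from below 0 to 0.37 and 0.38, and to 0.43 and 0.40 when control animal 1 was also left out. The references by single set, the centred fits with another reference or without control animal 1, and those leaving out an animal for the compound, control-set and median comparisons, were chosen after seeing the data.

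The ratio count of 1 was 0 against the 12 controls and 0 to 2 with 1 animal left out. The 3 analytes that differed between PB and PBO became 2 to 28 with 1 animal left out. The 16 that differed between PB and CPA became 9 after centring, 3 with all controls of each vehicle and 3 to 41 with 1 animal left out. The count of 1 for set 6 against the 9 others became 0 to 2, being 0 without control animal 3 and 2 without control animal 2. The difference of the animal medians ran from -0.52 to -0.22.

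Equal replicate numbers did not pair the animals (correlations of deviations 0.03, 0.01 and 0.07), and with the replicate block 12 analytes were called, 3 higher and 9 lower, including the 8. The cause of these shifts was not tested.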
